A study of Rattus norvegicus with 10 samples.

Results

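Duox2, an NADPH oxidase that releases hydrogen peroxide, was examined together with enzymes that remove peroxide, in RCS cells lacking ARSL and in wild-type RCS cells. RCS is a rat chondrosarcoma line whose cells make a cartilage-like matrix, and ARSL encodes arylsulfatase L, a sulfatase found in the Golgi. The gene set named 10 symbols. Duox2 was selected on its rise, that is on its difference between knockout and wild-type cells in these same libraries, while the 9 scavengers, Cat, Gpx1, Gpx4 and Prdx1 to Prdx6, were put in it for what they do. Of these 10 symbols, 8 head a row among the 10184 genes of the deposited table, and all 8 passed the filter on low values. No row carried the symbol Gpx1 or Prdx6, and these genes were not analysed here.

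The libraries were 5 of ARSL knockout (KO) cells and 5 of wild-type (WT) cells, both grown in the same serum-containing medium without treatment and harvested 48 h after seeding. The labels call them biological replicates but do not say whether the KO cells were 1 clone or several, or whether cultures were grown on separate days. The p-values therefore measure the spread between these libraries, which may be partly technical, and the genotype cannot be told apart from another difference between the lines. Neither Arsl nor its older name Arse headed a row, so the deletion was not checked in the RNA. Of 10 chondrocyte markers, 8 were listed, Col2a1, Acan, Col9a1, Col11a2, Hapln1, Matn1, Matn3 and Comp. Their summed level was 33830 to 43240 normalised reads in KO and 35080 to 54770 in WT, and Sox9 and Snorc headed no row. Of 6 epithelial markers Krt8 and Muc1 were listed, with a sum of 400.0 to 499.6 normalised reads in KO and 431.2 to 511.0 in WT, and Epcam and Cdh1 headed no row. The listed osteoblast markers, 3 of 6, summed to 532.7 to 834.4 in KO and 671.2 to 1141 in WT. The 2 listed of 7 fibroblast markers reached at most 49.23 and the 1 listed of 6 leukocyte markers at most 10.52 in any library. The part of these genes in the results was not tested.

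DUOX2 is an integral membrane enzyme that passes electrons from NADPH to oxygen and releases hydrogen peroxide on the outer side of the cell. It is best known in the thyroid, where its peroxide serves iodination of thyroglobulin, and in mucosal epithelia, and it needs the maturation factor DUOXA2 to leave the endoplasmic reticulum. Peroxide inside cells is removed by catalase in peroxisomes, by glutathione peroxidases, which use glutathione, and by peroxiredoxins, most of which are recycled by thioredoxin. PRDX1 and PRDX2 act mainly in the cytosol, PRDX3 in mitochondria, PRDX4 in the endoplasmic reticulum, and PRDX5 in several compartments.

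Sequences next to the gene starts were taken from RefSeq on the rat assembly GRCr8, which held all 8 listed members. That assembly is not rn6, on which the authors counted reads. They are shown for Duox2, the member chosen for its rise, for Cat, the scavenger with the largest difference, and for Prdx1, the only member with matches to all of the motifs searched. Capitals mark matches on either strand to TGACNNNGC, the core of the antioxidant response element bound by NRF2, to TGANTCA, the AP-1 site, or to TATAAA, the TATA box. Duox2 is shown as the 51 bases between its outermost annotated start and that of Duoxa2, which lies head to head with it (chr3:129698887-129698937, minus strand). Prdx1 (chr5:135383656-135383905, plus strand) and Cat (chr3:110329527-110329776, minus strand) are shown as the 250 bases before their starts.
Duox2: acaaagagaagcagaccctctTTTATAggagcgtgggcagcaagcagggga
Prdx1: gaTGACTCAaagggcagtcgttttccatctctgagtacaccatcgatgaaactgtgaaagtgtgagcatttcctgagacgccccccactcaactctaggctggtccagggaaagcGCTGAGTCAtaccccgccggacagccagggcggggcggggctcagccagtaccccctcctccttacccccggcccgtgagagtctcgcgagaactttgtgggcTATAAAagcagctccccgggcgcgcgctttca
Cat: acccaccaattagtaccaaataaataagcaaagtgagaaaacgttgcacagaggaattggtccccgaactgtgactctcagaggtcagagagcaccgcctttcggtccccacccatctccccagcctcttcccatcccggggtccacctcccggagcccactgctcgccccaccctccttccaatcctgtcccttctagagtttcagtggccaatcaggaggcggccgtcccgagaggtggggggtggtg

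The windows searched ran from 250 bases before to 50 bases after each start. TGACNNNGC was found in the windows of Prdx1, Prdx4 and Prdx5 and in 12.1% of all 33469 windows in the RefSeq table. TGANTCA was found 2 times in Prdx1, where the second match overlaps the antioxidant response element match, once in Duox2 in the stretch not printed, and in 7.33% of all windows. TATAAA was found in Duox2 and Prdx1 and in 14.2% of all windows. In Duox2 it lay on the opposite strand, that of Duoxa2, and so reads TTTATA in the printed stretch. It was at -163 from the Duox2 start used for the window, which is not the outermost annotated start. Cat, Gpx4, Prdx2 and Prdx3 held none of the letters searched. A match describes letters in the window and was not tested as a binding site.

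Values are given as normalised reads, which are whole reads recovered from the deposited values and divided by the library's size factor. Differences are given as KO minus WT on the deposited log2-like scale, on which a doubling of a gene at the mean level of Duox2 is close to 1 unit and a doubling of a gene at that of Cat about 0.688 units. The libraries held 2065594 to 2591819 recovered reads each, and KO libraries averaged 2260216 ± 179783 against 2326512 ± 195616 in WT (SD, n = 5 each; two-sided p = 0.563 in an exact permutation test). WT 3, WT 4 and ARSL KO 4 stood apart on the first principal component, with scores of 28.0, 26.81 and 7.91 against -15.04 to -2.96 in the other libraries, so results that rest on them are also given without them.

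Duox2 had 922.2, 973.2, 1029, 813.9 and 1183 normalised reads in ARSL KO libraries 1 to 5, against 628.5, 623.3, 299.8, 349.9 and 551.8 in WT libraries 1 to 5. Every KO library lay above every WT library, as was so for 1.86% of all tested genes, with ARSL KO 4 the lowest of its group and WT 3 and WT 4 the lowest of theirs. The means were 984.3 ± 137 in KO and 490.6 ± 155 in WT (SD, n = 5 each), a ratio of 2.01 and a log2-like difference of 0.99 (SE 0.180). Because Duox2 was chosen for this difference, it is given as a description without a test. In bulk RNA, more cells with the transcript and more transcript per cell cannot be told apart. Each library gave 274 to 1319 recovered reads of Duox2.

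Within WT, Duox2 averaged 324.8 normalised reads in WT 3 and WT 4 and 601.2 in WT 1, WT 2 and WT 5, so the others were 1.85-fold above this pair. Without WT 3, WT 4 and ARSL KO 4, the means were 1027 in the 4 remaining KO libraries and 601.2 in the 3 remaining WT libraries, a ratio of 1.71 and a difference of 0.73. The 3 libraries that were low for Duox2 within their groups are the same 3 that stood apart on the first component. The part of that axis in the difference between genotypes was not tested beyond this.

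**Figure D1:**
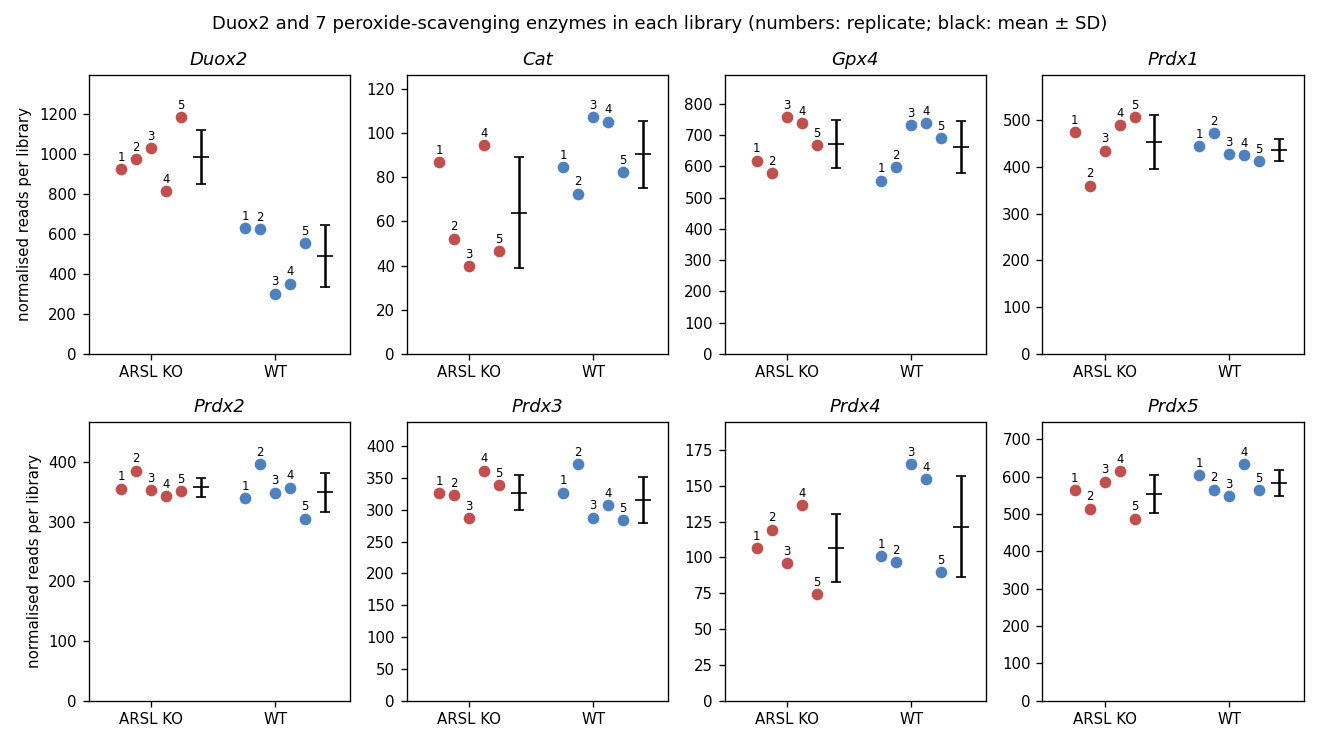
Normalised reads of Duox2 and 7 peroxide-scavenging enzymes in each library, ARSL KO on the left and WT on the right of each panel, with the replicate number at each point and the mean ± SD in black (n = 5 each; every axis starts at 0). Duox2 runs from 813.9 to 1183 in KO and from 299.8 to 628.5 in WT, while the groups overlap for each of the other 7 genes.

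None of the 7 listed scavengers passed the test between genotypes. At a limma adjusted p under 0.05, with Benjamini-Hochberg adjustment over all 8431 genes tested, 0 of the 7 were higher or lower. Of all tested genes 1.14% passed, 0.261% higher and 0.878% lower. At an unadjusted p under 0.05 there was 1 of 7, Cat, where 13.5% of all tested genes lay under it. With limma-voom on the recovered reads the counts were also 0 and 1. The median difference of the 7 was 0.02, against 0.01 for all tested genes, with 4 above 0 and 3 below it. KO and WT values overlapped for all 7. Of all tested genes 4.26% did not overlap between the groups, 1.86% with KO above and 2.4% with KO below. At so small a share, overlap of all 7 does not set them apart from other genes.

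Catalase breaks hydrogen peroxide down to water and oxygen without a reducing partner. Cat had 86.96, 52.13, 39.7, 94.66 and 46.64 normalised reads in ARSL KO libraries 1 to 5, against 84.55, 72.59, 107.2, 105.2 and 82.45 in WT libraries 1 to 5. ARSL KO 2, 3 and 5 lay below all WT libraries, while ARSL KO 1 and 4 lay inside the WT range. The means were 64.02 ± 25 in KO and 90.39 ± 15.1 in WT (SD, n = 5 each), a difference of -0.37 (SE 0.156, 95% interval -0.71 to -0.04) with a limma adjusted p of 0.307. The interval is for this gene alone, before adjustment over all genes. The coefficient of variation of Cat was 39.1% in KO and 16.7% in WT.

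The KO mean of Cat was below the WT mean with and without the libraries that stood apart. Without WT 3, WT 4 and ARSL KO 4, Cat averaged 56.36 normalised reads in KO and 79.86 in WT, a difference of -0.36. Among these remaining libraries ARSL KO 1, at 86.96, lay above the highest WT library, WT 1 at 84.55. Over the settings tried on the deposited scale, its difference lay between -0.48 and -0.28, and limma-voom gave -0.58 on a plain log2 scale. Its limma adjusted p lay between 0.134 and 0.555 over all of them. Cat had the fewest reads of the 8 members, 43 to 110 per library, so its counting error is larger than that of the others.

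GPX4, a selenoenzyme, reduces lipid hydroperoxides in membranes and protects against ferroptosis. Gpx4 had 618.4, 578.9, 757.0, 738.8 and 667.3 normalised reads in ARSL KO libraries 1 to 5, against 554.4, 597.1, 732.0, 739.0 and 691.3 in WT libraries 1 to 5. The groups covered nearly the same range, with libraries 1 and 2 the lowest in each. The difference was 0.02 (SE 0.107, 95% interval -0.21 to 0.25, limma adjusted p = 0.951). RefSeq lists 4 pseudogenes of Gpx4, and the sources used here do not say how the counting placed reads shared with them.

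The cytosolic peroxiredoxins were close between genotypes. Prdx1 had 473.4, 359.5, 434.8, 488.9 and 505.8 normalised reads in ARSL KO libraries 1 to 5, against 444.5, 471.3, 426.7, 425.4 and 412.3 in WT libraries 1 to 5. The KO libraries spread on both sides of the WT range, with ARSL KO 2 the lowest of all and a coefficient of variation of 12.9% in KO and 5.23% in WT. The difference was 0.04 (95% interval -0.17 to 0.25, limma adjusted p = 0.882). Prdx1 has 8 copies or pseudogenes in RefSeq, and 1 of them, Prdx1l1, had its own row with 61.48 to 118.4 normalised reads in KO and 45.95 to 118.1 in WT, so the split of reads between the rows is uncertain.

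Prdx2 had 355.4, 385.6, 352.7, 343.5 and 351.6 normalised reads in ARSL KO libraries 1 to 5, against 339.9, 396.8, 349.0, 357.5 and 305.5 in WT libraries 1 to 5. All 5 KO libraries lay inside the WT range. Prdx2 had the narrowest spread of the members in KO, with a coefficient of variation of 4.52% against 9.41% in WT, and a difference of 0.03 (95% interval -0.15 to 0.22, limma adjusted p = 0.897). Counting error alone would give Prdx2 a coefficient of variation of 5.25% in KO, more than was observed.

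Prdx3, the mitochondrial peroxiredoxin, had 326.4, 322.6, 286.2, 361.1 and 338.1 normalised reads in ARSL KO libraries 1 to 5, against 326.9, 371.6, 287.7, 306.9 and 283.3 in WT libraries 1 to 5. The groups overlapped over most of their range, and the difference was 0.05 (95% interval -0.15 to 0.25, limma adjusted p = 0.852). Prdx3 has 1 further copy or pseudogene in RefSeq. Prdx5 had 564.7, 514.8, 587.2, 614.8 and 487.9 normalised reads in ARSL KO libraries 1 to 5, against 604.1, 565.2, 547.1, 633.8 and 563.4 in WT libraries 1 to 5. ARSL KO 2 and 5 lay below the WT range and the other KO libraries within it, with a difference of -0.07 (95% interval -0.26 to 0.12, limma adjusted p = 0.750).

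PRDX4 couples peroxide removal to disulfide formation in the endoplasmic reticulum. Prdx4 had 106.3, 119.5, 96.01, 136.6 and 74.44 normalised reads in ARSL KO libraries 1 to 5, against 101.1, 96.78, 165.2, 154.9 and 89.85 in WT libraries 1 to 5. WT 3 and WT 4 were the highest of all libraries, and ARSL KO 4 was the highest of its group. The means were 106.6 ± 23.5 in KO and 121.6 ± 35.5 in WT (SD, n = 5 each), a difference of -0.13 (95% interval -0.46 to 0.20, limma adjusted p = 0.729). Without WT 3, WT 4 and ARSL KO 4, they were 99.05 in KO and 95.91 in WT, and the difference was 0.02, so its sign rested on those libraries.

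**Figure D2:**
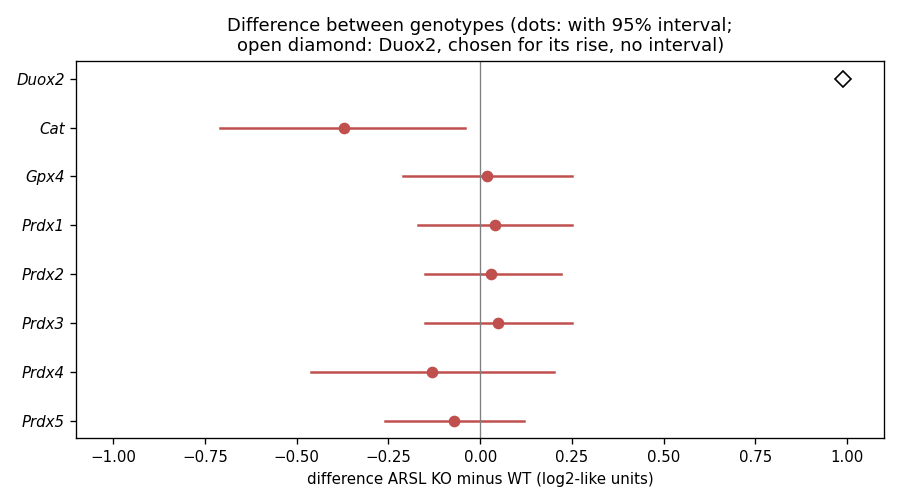
Difference ARSL KO minus WT in log2-like units for each member, with the 95% interval of the limma fit for the 7 scavengers (n = 5 each) and none for Duox2, which was chosen for its rise. The intervals of 6 scavengers lie within 0.5 units of 0, and that of Cat runs from -0.71 to -0.04. The same size in these units is a larger fold for a weakly read gene.

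For 6 of the 7 scavengers the 95% interval lay within 0.5 units of 0 on either side, taken for each gene alone. These units are not the same fold for every gene, since a doubling is about 0.756 units for Prdx4 and 0.941 for Gpx4. Summed over the 7 scavengers, the normalised reads were 2531, 2333, 2554, 2778 and 2472 in ARSL KO libraries 1 to 5, against 2455, 2571, 2615, 2723 and 2428 in WT libraries 1 to 5. The sum averaged 2534 ± 162 in KO and 2559 ± 120 in WT (SD, n = 5 each), and the groups covered nearly the same range. Strongly read genes dominate this sum. Cat, with means of 64.02 in KO and 90.39 in WT, adds little to it, and Gpx1 and Prdx6 are not in it.

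Within genotypes, members differed in how they followed the libraries that stood apart. Prdx4 was 1.67-fold, Cat 1.33-fold and Gpx4 1.2-fold higher in WT 3 and WT 4 than in the mean of WT 1, WT 2 and WT 5, while Duox2 was lower there. Prdx1, Prdx2 and Prdx5 stayed within a few percent between these sets of libraries, with ratios of 0.962, 1.02 and 1.02, and Prdx3 had a ratio of 0.909. ARSL KO 4 was the highest KO library for Cat, Prdx3, Prdx4 and Prdx5 and the lowest for Duox2 and Prdx2. These sets of libraries were seen in the data and are not groups of the study, so no test was made.

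**Figure D3:**
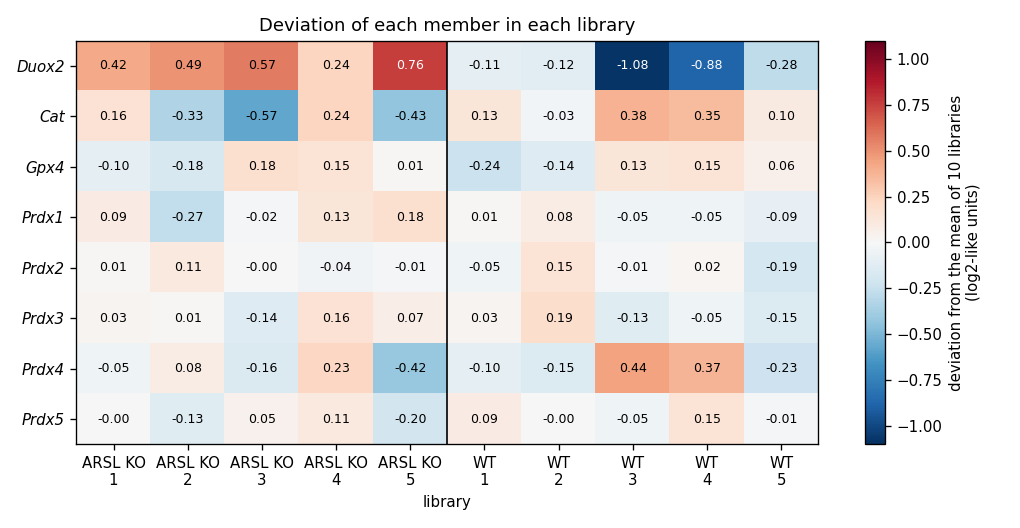
Deviation of each member in each library from the mean of the 10 libraries, in log2-like units (red above, blue below), with ARSL KO libraries left of the line and WT libraries right of it. Duox2 reaches -1.08 in WT 3 and -0.88 in WT 4, where Prdx4 is at 0.44 and 0.37, while Prdx2 stays between -0.19 and 0.15 throughout.

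The genes whose profile over the 10 libraries was most like that of Duox2, by Pearson's r of the log2-like values over all tested genes, were Rfc1, Tada2a, Anp32e, Irx5 and Ing2. Rfc1, the large subunit of the clamp loader of DNA replication, had r = 0.985 with Duox2, and 455.8 to 583.5 normalised reads in KO against 275.7 to 455.0 in WT. Tada2a, a subunit of histone acetyltransferase complexes, had r = 0.980, Anp32e, a histone chaperone, 0.977, Irx5, a homeobox transcription factor, 0.969, and Ing2, a chromatin reader, 0.966. Without WT 3 and WT 4, the libraries farthest from the median of Duox2, r was 0.949, 0.943, 0.938, 0.893 and 0.887 for these genes in the same order. The genes were picked for a high r over libraries that include the remaining 8, so these values are not a separate check. Their differences between genotypes were 0.52, 0.29, 0.18, 0.53 and 0.26 on the log2-like scale. Without WT 3, WT 4 and ARSL KO 4 they were 0.38, 0.20, 0.12, 0.35 and 0.18. Genes picked for their likeness to a gene that was chosen for its rise will tend to rise too. Their differences and the ranges of Rfc1 therefore follow from the choice and are not separate findings. Duox2 was chosen for its rise, so the sizes of these differences are not compared with its own.

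These r values include the difference between genotypes and the axis on which WT 3 and WT 4 stood apart, and they are a description over 10 libraries. Among the scavengers r with Duox2 ran from -0.784 for Cat and -0.688 for Prdx4 to 0.352 for Prdx3. Without WT 3 and WT 4 it was -0.676 for Cat and -0.086 for Prdx4, so the likeness of Prdx4 in the opposite direction rested on those libraries.

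The neighbours of Duox2 on chromosome 3, by gene order in GRCr8, include its partners. Duoxa2, which encodes the maturation factor, Duoxa1 and Duox1, the next genes on one side, headed no row and were not analysed here. On the other side the nearest gene, Sord, which encodes sorbitol dehydrogenase, had 231.3 ± 24.9 normalised reads in KO and 205.5 ± 24.4 in WT (SD, n = 5 each), a difference of 0.15 (limma adjusted p = 0.545). B2m, the light chain of MHC class I, had 1029 ± 123 in KO and 1561 ± 685 in WT, with WT up to 2405 (difference -0.49, limma adjusted p = 0.345), and without WT 3, WT 4 and ARSL KO 4 its difference was -0.11.

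Beyond the members, 8 lists covered the making of peroxide, its removal and the supply of reducing power, with 119 symbols, of which 75 were tested. None of the 75 passed the limma test, the smallest adjusted p being 0.189, and limma-voom also called 0. With 1.14% of all tested genes passing, fewer than 1 of 75 would be called at that share. At an unadjusted p under 0.05 there were 14 of the 75 by either method, where 13.5% of all tested genes lay under it by limma. Their median difference was 0.04, and they ran from -0.55 for Sesn3 to 0.69 for Nqo1. Sesn3 encodes a sestrin, a stress-induced regulator. Sizes are not compared with that of Duox2, which was chosen for its rise. This scale also shrinks the differences of weakly read genes. Txnrd3 differed by -0.54 on it, but by -1.0 in plain log2 units with limma-voom, where Duox2 differed by 1.05.

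Of 16 NADPH oxidases and partners other than Duox2, 2 were listed. Rac1, a small GTPase that activates several of these oxidases, had 1154 ± 71.2 normalised reads in KO and 1371 ± 60.5 in WT (SD, n = 5 each). The groups did not overlap, at 1058 to 1229 in KO against 1306 to 1451 in WT, as was so with KO below for 2.4% of all tested genes. The Rac1 difference of -0.24 did not pass (limma adjusted p = 0.207). Ncf4, a cytosolic subunit of the phagocyte oxidase, was near the lower limit of the table, at 9.42 in KO and 14.3 in WT. Nox1, Nox3, Nox4, Cyba and Cybb headed no row.

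Of 20 superoxide dismutases and other enzymes that make peroxide, 12 were tested and 0 passed, with a median of 0.03. Sod1, which turns superoxide into peroxide in the cytosol, had 3089 ± 287 normalised reads in KO and 2911 ± 497 in WT (difference 0.10, limma adjusted p = 0.753). The smallest p was that of Loxl3, a lysyl oxidase, with 310.1 ± 56.6 in KO and 236.5 ± 33.8 in WT (SD, n = 5 each), a difference of 0.33 (limma adjusted p = 0.246).

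Of 16 other glutathione peroxidases and genes of glutathione supply, 12 were tested and 0 passed, with a median of 0.12. Gpx7, a glutathione peroxidase of the endoplasmic reticulum, had 97.46 ± 17.1 normalised reads in KO and 69.59 ± 15.3 in WT (SD, n = 5 each), a difference of 0.34 (limma adjusted p = 0.220). Gpx8, its close relative in the same compartment, differed by -0.08. Gclc and Gclm, the subunits of the rate-limiting enzyme of glutathione synthesis, differed by 0.19 and 0.12, with limma adjusted p-values of 0.687 each.

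Of 12 genes of the thioredoxin system, 9 were tested and 0 passed, with a median of -0.03. Txnrd3, a thioredoxin reductase, had 21.9 ± 6.26 normalised reads in KO and 47.52 ± 23.2 in WT, a difference of -0.54 (limma adjusted p = 0.189), and its highest WT library reached 80.96. In normalised reads Txnrd3 was 2.17-fold higher in WT on average, and without WT 3, WT 4 and ARSL KO 4 its difference was -0.34 (limma adjusted p = 0.260). Txnrd1, the cytosolic reductase, had 888.1 ± 137 in KO and 851.7 ± 276 in WT (difference 0.11). Txnip, an inhibitor of thioredoxin, ran from 183.7 to 268.4 in KO and from 136.4 to 651.0 in WT, a wider range in WT than in KO. Its difference of -0.40 became 0.16 without those 3 libraries, with limma adjusted p-values of 0.597 and 0.549.

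Of 21 symbols for NRF2 and its targets, 12 were tested and 0 passed, with a median of 0.11 and 9 of 12 above 0. NRF2 is the transcription factor that raises antioxidant genes when KEAP1 releases it. Nqo1, a quinone reductase, had the highest difference of the list, 0.69, with 585.5 to 1050 normalised reads in KO and 235.2 to 819.2 in WT. The groups overlapped, and its limma adjusted p was 0.264. Without WT 3, WT 4 and ARSL KO 4 its difference was 0.29 (limma adjusted p = 0.215). Blvrb, a biliverdin reductase, had 161.0 ± 28.1 in KO and 217.1 ± 35.5 in WT (difference -0.36, limma adjusted p = 0.204), and passed only without WT 3, WT 4 and ARSL KO 4 (difference -0.44, limma adjusted p = 0.0150). Nfe2l2, which encodes NRF2, differed by 0.22 and Keap1 by 0.01.

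The other lists also held 0 genes that passed. Of 14 tested genes of NADPH supply, with a median of 0.11, Mthfd2, a mitochondrial folate enzyme, had the smallest p, with 1211 ± 106 normalised reads in KO and 1018 ± 98.6 in WT (difference 0.24, limma adjusted p = 0.272). Of 10 genes of selenoprotein synthesis, on which GPX4 depends, Secisbp2, which binds selenoprotein mRNAs, had the smallest p, at 97.65 ± 12.3 in KO and 124.2 ± 13.7 in WT (difference -0.26, limma adjusted p = 0.251). Of 10 tested genes of peroxisome import, which brings catalase to its compartment, Pex14, a docking subunit, had 68.99 ± 7.17 in KO and 56.01 ± 7.03 in WT (difference 0.20, limma adjusted p = 0.393).

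**Figure D4:**
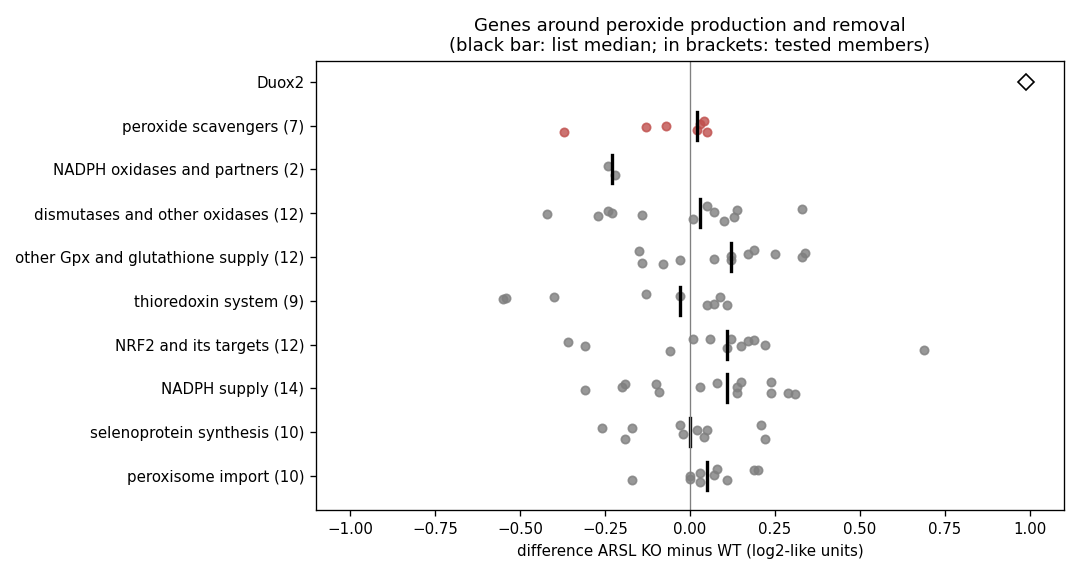
Difference ARSL KO minus WT in log2-like units for Duox2 (open diamond), the 7 tested scavengers (red) and the tested genes of 8 further lists (grey), with the list median as a black bar and the number of tested genes in brackets. Duox2 lies at 0.99 and was chosen for its rise, so its place above the listed genes follows from that choice. The listed genes run from -0.55 to 0.69 on this scale, which shrinks the differences of weakly read genes.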

How the data were processed

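RNA of RCS cells was profiled in 5 ARSL KO and 5 WT libraries by a sequencing company's digital mRNA-seq, per the labels' protocols. The submitters' processing notes name bcl2fastq, STAR 2.7.11a, HTSeq and build rn6; the use of strand is not given. The authors deposited variance-stabilized log2 values, normalized for library size, for 10184 genes. The tool and gene filter are not given; each row held no fewer than 30 reads and was read in no fewer than 3 libraries.

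Inverting the closed form of the transformation, with the lowest value (4.42) as a count of 0, put every value on a whole read within 3.8e-09 reads. Tested were the 8431 genes whose mean exceeded the lowest value by 1 or more (about 10.7 normalised reads). KO minus WT was fitted with limma 3.58.1 in R 4.3.3, with empirical Bayes variances and an intensity trend, two-sided, with Benjamini-Hochberg adjustment over all tested genes and a threshold of 0.05. Depth was compared with an exact permutation test over 252 assignments. Figures were drawn with matplotlib 3.10.9. On simulated libraries with 200 of 8431 genes changed, the fit recovered 30.9% of 1.5-fold changes, 61.3% of 2-fold changes and 91.2% of 4-fold changes, and 3.4% of its calls were false. Simulated reads varied independently between genes and libraries, with the same dispersion for a gene in both groups. They held no shared axis like that of WT 3, WT 4 and ARSL KO 4, so these shares may not hold for the real libraries.

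No pair of libraries of the same group agreed within sampling noise (lowest chi-square per degree of freedom 1.85, for WT 1 with WT 2). All were therefore kept as separate samples. The value was 2.37 for WT 3 with WT 4, but 19.9 to 21.3 for WT 1 or WT 2 against WT 3 or WT 4. This check cannot show whether the libraries came from separate cultures. The members, the 9 lists and the alternatives were chosen with earlier results of these data known. Named were all members, the called genes of each list or, with none, the gene with the smallest p, and the 5 genes most like Duox2; Sod1, Gpx8, Gclc, Gclm, Txnrd1, Txnip, Ncf4, Sesn3, Nqo1, Nfe2l2, Keap1 and the neighbours of Duox2 were added after their values were seen. Alternatives were a replicate block, no filter, a mean 2 or more above the lowest value, centring on medians, quantile normalization, a fit with no intensity trend, limma-voom on the recovered reads, each library left out, and 3 libraries left out together. Symbols were matched ignoring case; 813 rows had none. One further marker list is not reported here.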

Additional observations from a re-analysis of the deposited data

Results flagged for a closer look

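Of 21 named genes checked in both groups, 3 of 42 groups had a library far from the other 4, where chance gives about 1 in 20. Prdx2 in ARSL KO 2 had 385.6 normalised reads, against 343.5 to 355.4 in the other KO libraries. The coefficient of variation of Prdx2 over all KO libraries, 4.52%, was still below the 5.25% that counting error alone would give. Mthfd2 in ARSL KO 1 had 1392, against 1125 to 1199 in the others. Tada2a in ARSL KO 4 had 180.5, against 204.0 to 210.8 in the others.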

How the results depend on the processing

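The count of scavengers that passed was 0 in all 18 alternative settings. The 8 further lists held 0 in all of them except NRF2 and its targets, with 1 (Blvrb) when WT 3, WT 4 and ARSL KO 4 were left out together, a setting chosen after seeing the data. Duox2 differed by 0.85 to 1.09 with 1 library left out, by 0.73 without those 3 libraries by 1.05 on a plain log2 scale with limma-voom, and by 0.96 to 1.00 in the other settings. Over all genes 22 were higher and 74 lower. Leaving out 1 library at a time gave 8 to 24 higher and 25 to 78 lower, with the lowest counts without ARSL KO 3 and fewer than 50 lower also without ARSL KO 1, 2 or 5 or WT 3. The stricter filter gave 45 lower, with fewer genes tested, and leaving out the 3 libraries gave 113 higher and 187 lower. Differences near 0 changed sign: Gpx4 to -0.01 with quantile normalization and between -0.04 and 0.07 with 1 library left out, Prdx2 between -0.01 and 0.07 with 1 library left out, and without the 3 libraries Prdx1 to -0.01, Prdx3 to -0.03 and Prdx4 to 0.02. The cause was not tested. With a replicate block, 32 genes were higher, 104 lower and 0 scavengers passed. The replicate numbers were not taken as pairs, since the deviations of same-numbered libraries had correlations of -0.293 to 0.587 and not every KO library was most like the WT library of its number. Counting error alone would give Cat a coefficient of variation of 12.5% in KO and 10.5% in WT, below the 39.1% and 16.7% observed, and Prdx4 one of 9.66% in KO and 9.02% in WT, below the 22.1% and 29.2% observed.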
